A study of Mus musculus with 4 samples.

Results

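The inhibitor of apoptosis (IAP) family was examined in embryonic mouse hearts conditionally deficient for Sav1 (Salvador), a scaffold of the Hippo kinase cascade, and in control hearts. The members were the genes Birc2, Birc3, Xiap, Birc6 and Birc5, and all 5 had at least 1 probe with a single gene symbol on the array, Xiap under its older symbol Birc4. They accounted for 10 of the 29922 probes and for 5 of the 16675 genes tested. The groups were Salv CKO (the conditional knockout) and Control (genotype given as wild-type). Both groups were whole hearts at embryonic day 9.5 of a C57bl/6 x129 hybrid strain, with 2 pools of hearts in each group and 1 array for each pool. Neither the labels nor the design text name the Cre driver, the deleted exons or the number of hearts in a pool. The question was which transcripts change when Hippo signalling is lost in the forming heart.

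Inhibitor of apoptosis proteins share the BIR domain, a zinc-binding fold that in several members grips caspases or the proteins that free them. Xiap blocks caspases directly, whereas Birc2 and Birc3 (cIAP1 and cIAP2) are RING ubiquitin ligases that sit with Traf2 at the tumour necrosis factor (TNF) receptor, modify Ripk1 and keep the kinase Map3k14 low. Birc6 (Bruce) is a very large ubiquitin-conjugating protein, and Birc5 (survivin) acts mainly in dividing cells, in the chromosomal passenger complex with Aurkb, Incenp and Cdca8. The Hippo cascade restrains the coactivator Yap, which works with Tead factors, and both Birc2 and Birc5 are known as genes that respond to Yap in other tissues.

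Values are probe intensities. The deposited medians were 71.1 and 76.1 on the Salv CKO arrays and 77.5 and 101 on the Control arrays, so the arrays were quantile normalised before they were compared, and log2 values refer to that scale. A probe counted as above background where its normalised intensity exceeded 16 (log2 4), and 12402 genes did so on all 4 arrays. Differences are log2 Salv CKO minus Control from limma with the standard error, n = 2 pools per group, and a gene was called at an adjusted p under 0.05 over all genes. The probe of Sav1 itself gave -0.27 ± 0.13 (adjusted p = 0.266), and its place relative to the deletion is not known here, so it does not check the labels. The smallest p that an exact permutation of 4 arrays allows is 0.333, so every call draws on the variance that limma pools over genes.

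In the Salv CKO pools, 2 of the 5 family genes, Birc2 and Birc5, were called higher and 0 were called lower, through the brightest probe of each gene. The background over all genes was 4.92% called higher and 5.7% called lower. Birc2 was 2.14-fold higher and Birc5 1.34-fold higher, while Birc6 gave 0.12, Xiap -0.19 and Birc3 -0.01 on the log2 scale without a call. The study had singled out Birc2 and Birc5 on these same arrays, so their direction here is not independent evidence. Of the 5 main probes, those of Birc2, Birc5 and Birc6 were above background on all 4 arrays. The median difference of the 5 genes was 0.12, against -0.04 for all genes tested. In the fit over all probes, which called 6.3% of them in either direction, none of the other probes of these genes was called. Leaving out any 1 of the 4 arrays ended both calls, as it did for all 1772 genes called.

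**Figure D1:**
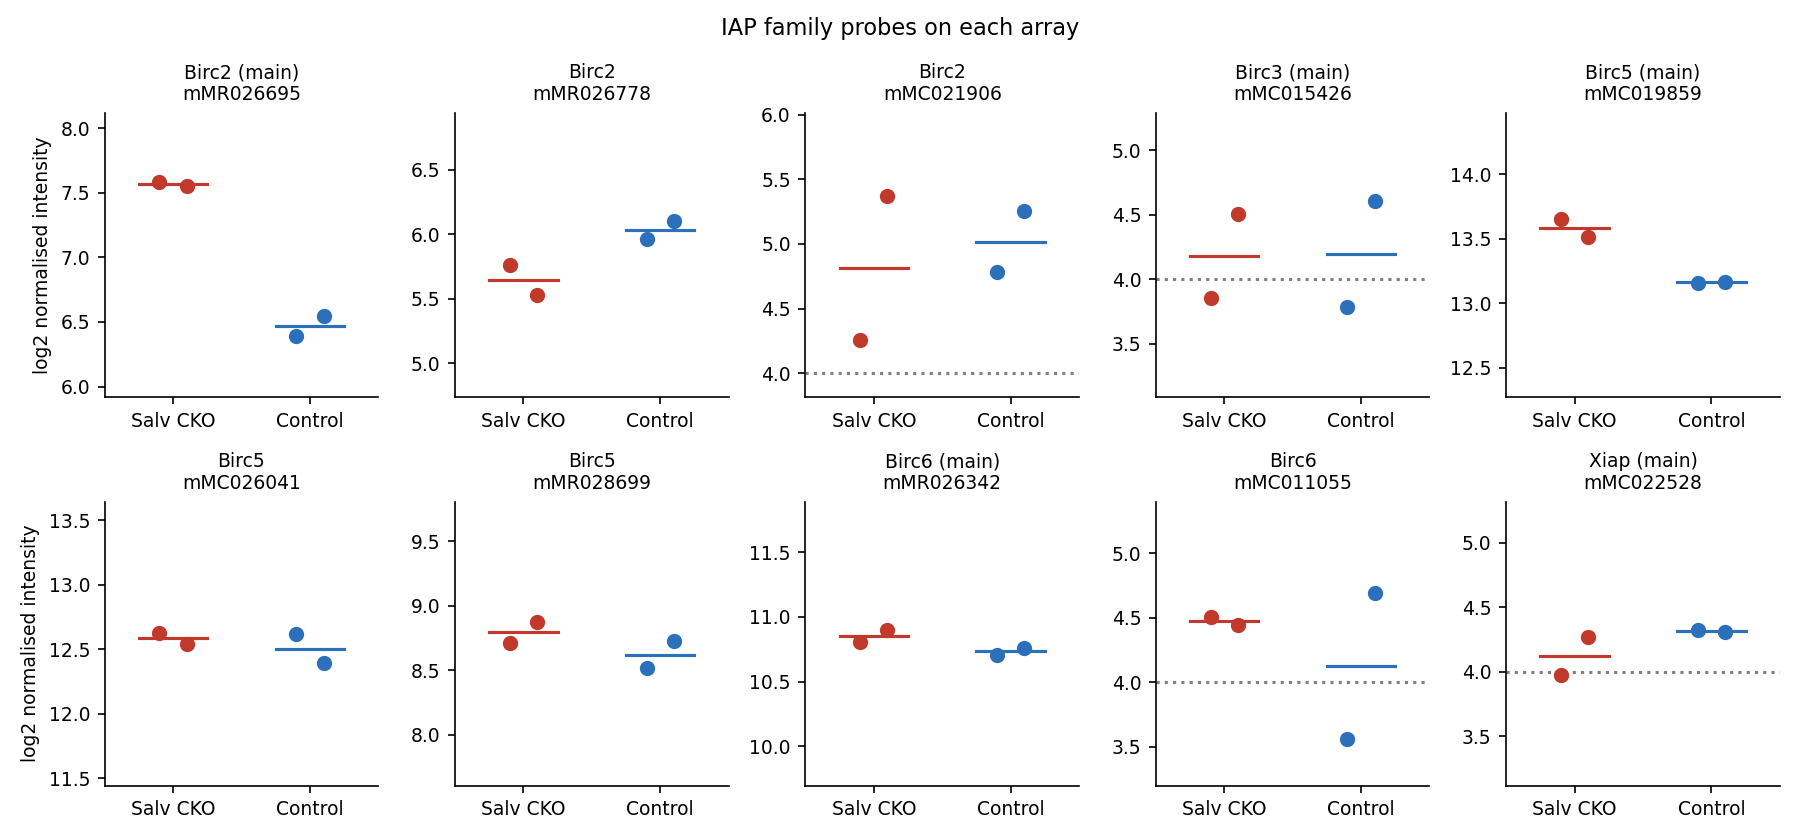
Log2 normalised intensity of each of the 10 family probes (y axis) in the Salv CKO pools (red, left) and the Control pools (blue, right), with 1 point per pool, a line at each group's mean and a dotted line at the background limit of log2 4. The panels have different positions on the y axis but the same span, and the largest gap between groups is that of the main Birc2 probe, 7.58 and 7.55 in Salv CKO against 6.39 and 6.54 in Control.

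Birc2 was measured by 3 probes. Its main probe, mMR026695, had deposited intensities of 163 and 168 in the Salv CKO pools, against 81.1 and 115 in the Control pools. After normalisation these were log2 7.58 and 7.55 in Salv CKO, against 6.39 and 6.54 in Control. Both Salv CKO pools thus lay above both Control pools, on the deposited scale as well. The group means were 7.57 ± 0.02 in Salv CKO and 6.47 ± 0.11 in Control (SD, n = 2 each), a difference of 1.10 ± 0.20 (adjusted p = 0.0338, 95% interval 0.59 to 1.60). Groups that did not overlap with Salv CKO on top were found for 25.2% of all genes.

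The other Birc2 probes did not show the rise. Probe mMR026778 stood at log2 5.76 and 5.53 in Salv CKO, against 5.96 and 6.10 in Control, a difference of -0.39 ± 0.29 with the groups apart in the opposite direction (adjusted p = 0.523 over all probes). That order of groups was found for 25.7% of all probes. Probe mMC021906 stood at 4.25 and 5.37 in Salv CKO, against 4.78 and 5.25 in Control, and the groups overlapped (-0.21 ± 0.55, adjusted p = 0.872). Both probes were dimmer than the main one but above the background limit on all 4 arrays. The 95% interval was -1.15 to 0.37 for the first and -1.65 to 1.24 for the second, so the second interval includes the size seen on the main probe and the first does not.

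The disagreement between Birc2 probes was itself measured within each array. The log2 ratio of the main probe to mMR026778 was 1.82 and 2.02 in Salv CKO, against 0.43 and 0.44 in Control, so that the change of the main probe exceeded that of the other by 1.49. Against mMC021906 the excess was 1.30, with ratios of 3.33 and 2.18 in Salv CKO and 1.61 and 1.29 in Control. In both cases the groups did not overlap. These were 2 of 5 such pairings in the family, described without a test since a permutation could again not fall below p = 0.333. The share of probe pairs of other genes with the groups apart was not counted, here or for Birc5 below. Among the 258 genes with 3 probes above background on all arrays, the range of change over the probes had a median of 0.74, and 31 genes had a wider range than the 1.49 of Birc2. No label names the transcripts or exons that the probes match, and averaging the 3 probes gave 0.17 (adjusted p = 0.789).

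**Figure D2:**
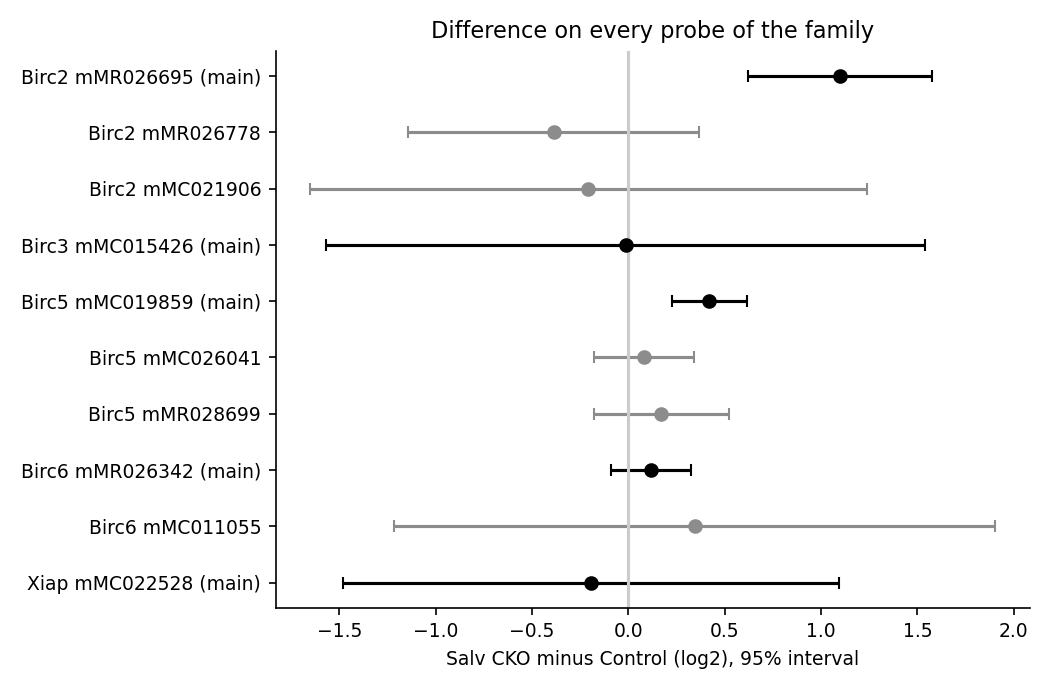
Difference in log2 intensity, Salv CKO minus Control (x axis), for each probe of the family, with limma's 95% interval from the fit over all 29922 probes; black marks the main probe of a gene and grey its other probes. The intervals of the main Birc2 and Birc5 probes (0.62 to 1.57 and 0.23 to 0.62) lie above 0 and those of the other 8 probes include it.

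Birc3, the neighbour of Birc2 in the genome and its closest relative in the family, was carried by 1 probe, mMC015426, which sat at the background limit. It stood at log2 3.86 and 4.50 in Salv CKO, against 3.78 and 4.61 in Control. In each group 1 of the 2 pools was above background, and the groups overlapped throughout. The difference was -0.01 ± 0.57 (adjusted p = 0.994), with a 95% interval of -1.48 to 1.45 that leaves room for more than the change seen at Birc2. In the RefSeq gene table each of the pair lists the other's symbol and both aliases, cIAP1 and cIAP2, among its synonyms, and without probe sequences it was not tested whether probes of the pair read only the gene they are named for.

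Xiap, the member that inhibits caspases directly, was likewise carried by 1 probe (mMC022528) at the limit of detection. It stood at log2 3.97 and 4.27 in Salv CKO, against 4.32 and 4.31 in Control. Of the 4 values, that of Salv CKO pool 1 was not above background. Both Salv CKO pools lay below both Control pools, as they did for 29% of all genes, and the difference of -0.19 ± 0.46 was not called (adjusted p = 0.837, 95% interval -1.39 to 1.01).

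Birc6 had a bright probe and a dim one. The main probe, mMR026342, had deposited intensities of 1467 and 1602 in Salv CKO, against 1805 and 2171 in Control, where the Salv CKO pools lay below. After normalisation it stood at log2 10.80 and 10.90 in Salv CKO, against 10.71 and 10.76 in Control. The Salv CKO pools lay just above the Control pools, by 0.12 ± 0.08 (adjusted p = 0.428). On the deposited scale it gave -0.37, and after median centring -0.10, so its direction turned with the scaling. On the quantile normalised scale the 95% interval of -0.09 to 0.33 excludes a change of the size of Birc2 in either direction, at 1.26-fold at most. The -0.37 on the deposited scale lies outside that interval. The dim probe, mMC011055, was at 4.50 and 4.44 in Salv CKO and at 3.56 and 4.69 in Control, where Control pool 1 was not above background (0.34 ± 0.60, adjusted p = 0.792).

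Birc5 (survivin) was carried by 3 probes, all well above background. The main probe, mMC019859, had deposited intensities of 10589 and 9698 in Salv CKO, against 9964 and 11369 in Control, which overlap. After normalisation it stood at log2 13.65 and 13.51 in Salv CKO, against 13.16 and 13.16 in Control, and the groups were apart. The means were 13.58 ± 0.10 in Salv CKO and 13.16 ± 0.00 in Control (SD, n = 2 each), a difference of 0.42 ± 0.07 (adjusted p = 0.0331, 95% interval 0.23 to 0.61). Probe mMC026041 stood at 12.63 and 12.54 in Salv CKO, against 12.61 and 12.39 in Control, and gave 0.08 ± 0.10 (adjusted p = 0.691). Probe mMR028699 stood at 8.72 and 8.87 in Salv CKO, against 8.52 and 8.73 in Control, and gave 0.17 ± 0.13 (adjusted p = 0.540). On both of these the groups overlapped. Within each array, the log2 ratio of the main probe to mMC026041 was 1.02 and 0.97 in Salv CKO, against 0.54 and 0.77 in Control, an excess of 0.34 with the groups apart. Against mMR028699 the ratio was 4.94 and 4.64 in Salv CKO and 4.64 and 4.44 in Control, an excess of 0.25 with the groups overlapping. The range of change over the 3 probes was 0.34, and 217 of the 258 genes with as many probes had a wider one. The mean of the 3 probes was 0.22 higher in Salv CKO without a call (adjusted p = 0.122).

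**Figure D3:**
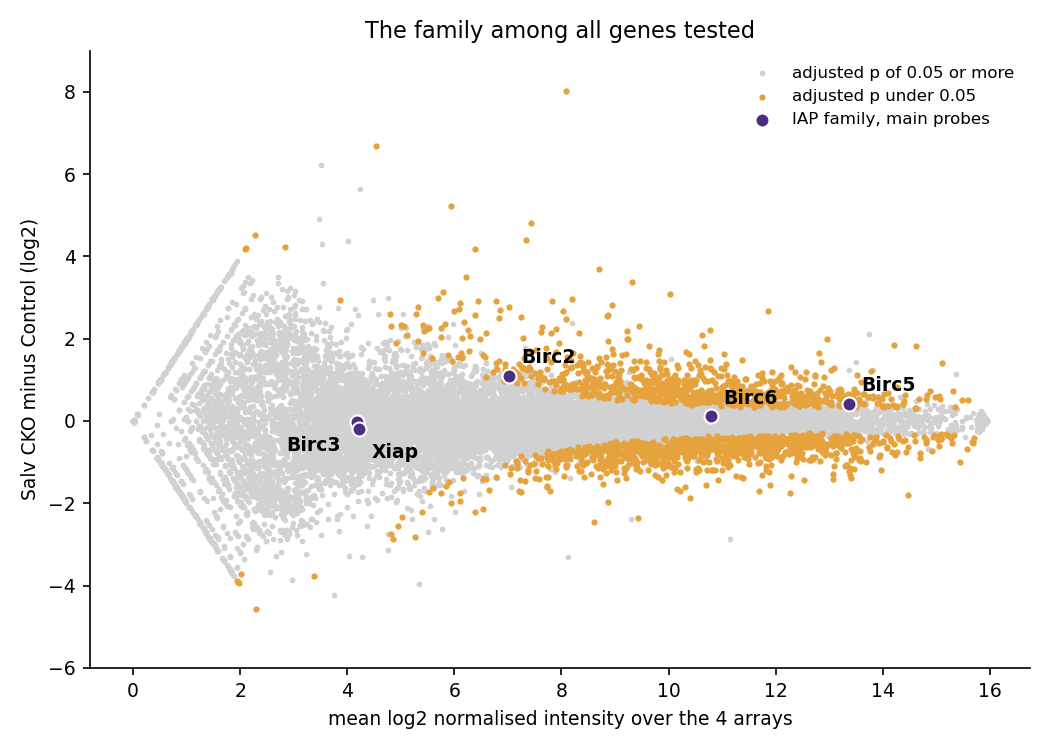
Difference in log2 intensity, Salv CKO minus Control (y axis), against mean log2 intensity over the 4 arrays (x axis) for the 16675 genes; orange points passed an adjusted p of 0.05, grey points did not, and the 5 family genes are named. Birc2 and Birc5 are among the called genes, Birc6 lies near 0, and Birc3 and Xiap lie at the dim end, where few genes were called.

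The difference of Birc5 changed sign with the scaling of the arrays, and that of Birc2 did not. On the deposited scale the measured genes had a median difference of -0.44, and after centring each array on its median they had -0.17, against -0.04 after quantile normalisation. Relative to that median, Birc2 was higher by 1.14 after quantile normalisation and by 1.22 with the values as deposited. Birc5 was higher than the median by 0.46 and 0.37 in the same order, and Birc6 by 0.16 and 0.07. Without that subtraction Birc5 was at -0.07 with the values as deposited (adjusted p = 0.756), at 0.20 after median centring (adjusted p = 0.437) and at 0.34 with each divided by its 75th percentile (adjusted p = 0.0789). The Birc5 call was therefore present under 2 of 5 scalings, quantile and cyclic loess (0.41, adjusted p = 0.0218), and that of Birc2 under 4 of them, all but the deposited values (0.77, adjusted p = 0.128). Over all alternatives run, the adjusted p ranged between 0.0113 and 0.789 for Birc2 and between 0.0110 and 0.756 for Birc5.

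**Figure D4:**
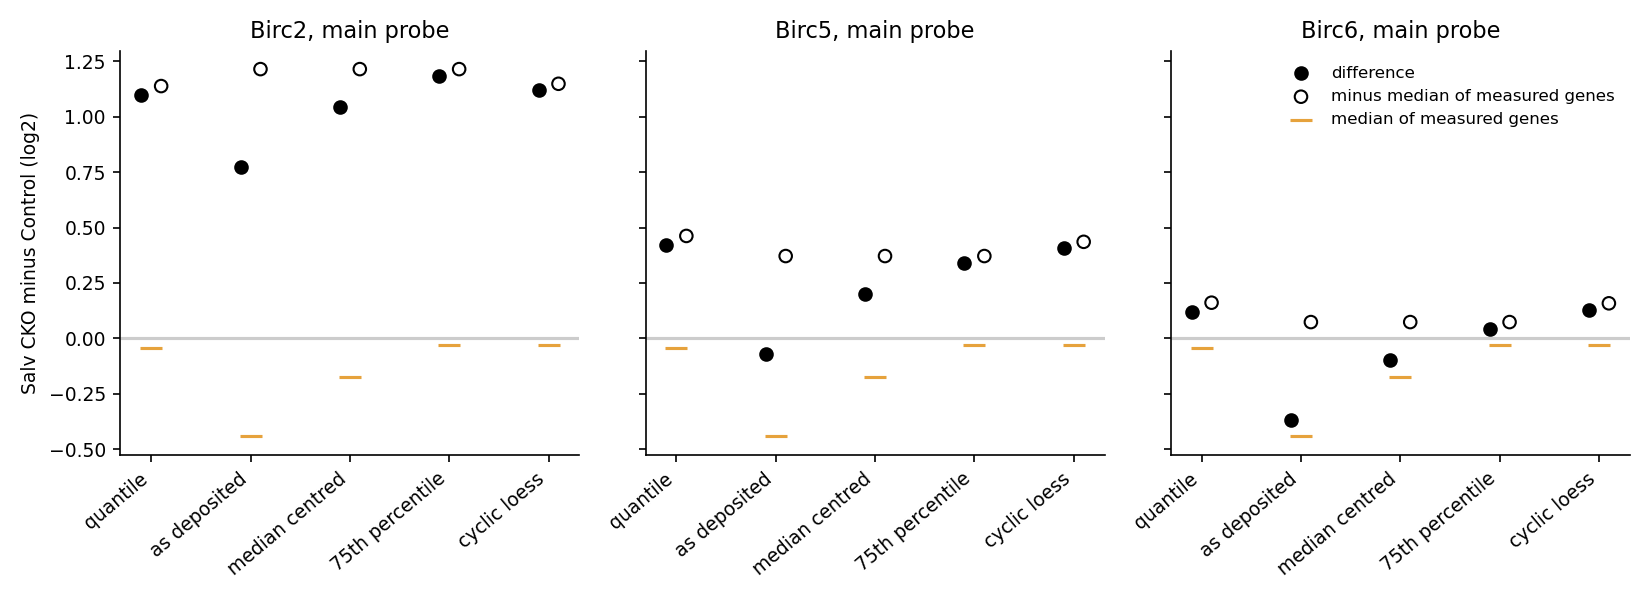
Difference of the main probes of Birc2, Birc5 and Birc6, Salv CKO minus Control in log2 (y axis), under 5 ways of scaling the arrays (x axis); filled points are the difference, open points the same minus the median over the genes above background, and orange bars that median. The filled point of Birc5 moves between -0.07 and 0.42 with the scaling, and its open point between 0.37 and 0.46. The deposited, median and percentile scalings differ by a constant per array, so their open points agree by arithmetic.

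The sequences just upstream of the called genes are shown because Tead factors, through which Yap acts, have a well known core motif, GGAATG, that can be looked for there. RefSeq (GRCm38.p6) annotates 8 starts for the 5 genes, and the 250 bases before each were searched on both strands for GGAATG for the cell cycle element TTTGAA (CHR) and for the GC box GGGCGG bound by Sp1, none of which overlaps another. Capitals mark a match.
Birc2, outer start, chr9:7837058-7837307, minus strand: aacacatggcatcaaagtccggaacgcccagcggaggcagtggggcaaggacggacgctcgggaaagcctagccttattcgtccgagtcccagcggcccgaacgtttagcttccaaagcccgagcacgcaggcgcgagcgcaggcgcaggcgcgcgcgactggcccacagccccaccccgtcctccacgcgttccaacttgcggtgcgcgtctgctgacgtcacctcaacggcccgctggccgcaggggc
Birc5, chr11:117848987-117849236, plus strand: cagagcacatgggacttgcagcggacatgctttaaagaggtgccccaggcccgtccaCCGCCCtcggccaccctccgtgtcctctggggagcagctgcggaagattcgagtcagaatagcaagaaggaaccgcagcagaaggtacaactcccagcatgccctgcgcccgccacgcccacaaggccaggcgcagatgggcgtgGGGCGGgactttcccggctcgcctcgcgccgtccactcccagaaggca
GGAATG was found in 0 of the 8 windows, against 12.6% of all 32851 windows in the table. TTTGAA was found in 1 of them, at a Xiap start, against 15.99% of all. GC content was 39.2, 43.6 and 68.4% in the windows without GGGCGG, against a median of 52.4% over all windows. GGGCGG was found in 5 of the 8 (GC content 46.4, 57.6, 61.2, 62.4 and 65.6%), against 32.7% of all. The Birc5 window holds it at 2 places, as does the window before the inner Birc2 start (chr9:7836807-7837056), which lies downstream of the outer start and is not printed, while the Birc2 window shown holds 0. These are matches of letters in short windows that end at the annotated start, so sites past it were not searched, and binding was not measured.

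Around the family, genes that act with it in cell death showed no call on the main probe of each gene, and Apaf1 was called on its other probe. Of the proteins that displace inhibitors of apoptosis from caspases, 2 of 4 listed were measured and 0 were called. Htra2, a mitochondrial serine protease, stood at log2 7.31 and 7.54 in Salv CKO, against 8.004 and 7.88 in Control (-0.52 ± 0.17, adjusted p = 0.139). Diablo (Smac), released from mitochondria, gave 0.00 ± 0.11 (95% interval -0.27 to 0.27). Of 8 measured caspase and apoptosome genes 0 were called, with a median of 0.12. The lowest p in that list belonged to Apaf1, the scaffold of the apoptosome, at 9.99 and 9.88 in Salv CKO, against 9.62 and 9.38 in Control (0.43 ± 0.12, adjusted p = 0.0965). Its other probe gave 1.16 ± 0.11 and passed in the fit over all probes (adjusted p = 0.0160). Casp2, an initiator caspase, was next at 0.17 ± 0.07 (adjusted p = 0.225). Over all genes limma called 10.6% in either direction.

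Genes of TNF receptor and NF-kB signalling, in which Birc2 and Birc3 act, lay mostly below 0. Of 32 measured genes 1 was called lower and 0 higher on the main probe of each gene, against 5.7% and 4.92% of all genes. A difference below 0 was found for 27 of the 32. The list's median was -0.36, against -0.04 for all genes. With quantile, cyclic loess and deposited values alike, 25 of the 32 lay below the median of the measured genes. The other scalings shift each array by a constant, so they repeat the deposited result by arithmetic and add no separate check. The called gene was Rnf31, the catalytic subunit of the linear ubiquitin ligase that works beside Birc2, at log2 9.01 and 9.12 in Salv CKO and at 9.59 and 9.72 in Control (-0.59 ± 0.11, adjusted p = 0.0376). Fadd, the death receptor adaptor, chosen after its values were seen, gave -0.03 ± 0.08 on its main probe, -0.64 ± 0.11 on another, which passed in the fit over all probes (adjusted p = 0.0464), and -1.22 ± 0.40 on the remaining one, which did not (adjusted p = 0.174). The direct partners of Birc2, chosen after their values were seen, were not called: Traf2 was at -0.91 ± 0.43 (adjusted p = 0.263), Ripk1 at -0.22 ± 0.15 (adjusted p = 0.419) and Map3k14 at 0.03 ± 0.66 (adjusted p = 0.983).

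**Figure D5:**
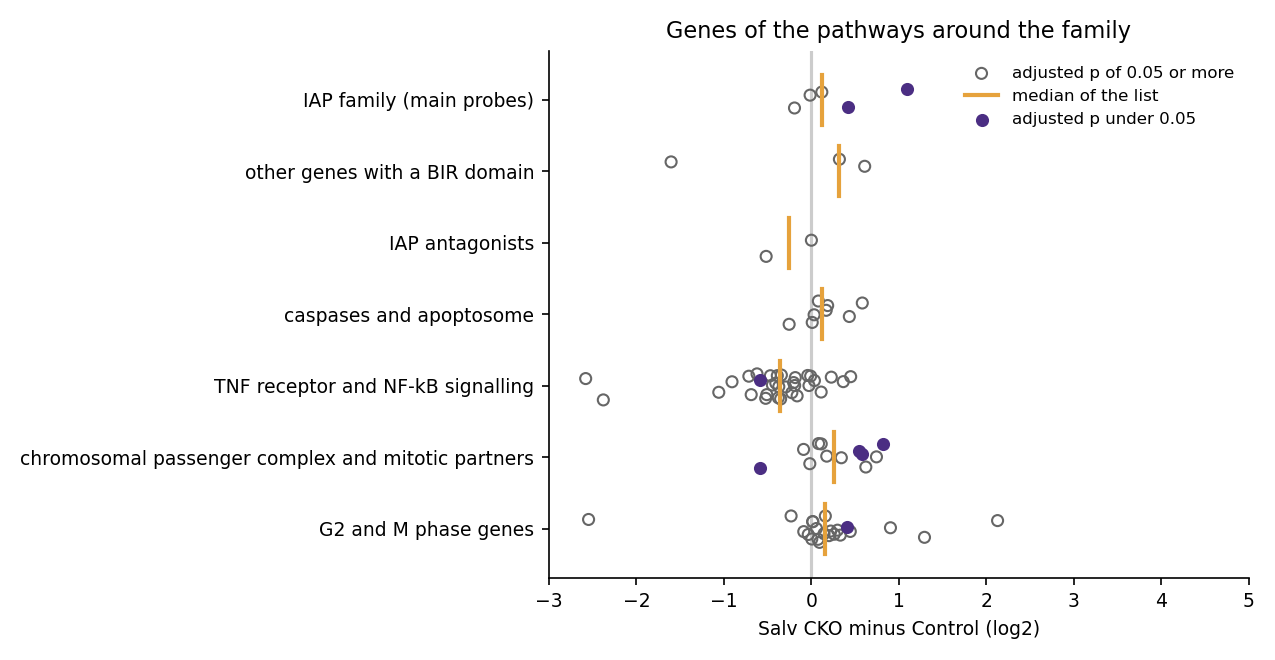
Difference in log2 intensity, Salv CKO minus Control (x axis), for the family's main probes and for 6 lists of related genes (y axis), 1 point per gene; filled points passed an adjusted p of 0.05 and orange bars are list medians. The medians are -0.36 for the TNF receptor and NF-kB list and 0.26 for the chromosomal passenger list.

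Partners of Birc5 in mitosis lay mostly above 0 after quantile normalisation, with calls in both directions. Of 12 genes of the chromosomal passenger complex and its mitotic partners, 3 were called higher and 1 lower, with a median of 0.26. A difference above 0 was found for 9 of the 12 and one below 0 for 3. On the deposited scale the median was -0.16, and 2 of the 12 lay below the median of the measured genes. Over all genes 4.92% were called higher and 5.7% lower. Cdca8 (borealin), which binds Birc5 directly, stood at log2 12.69 and 12.56 in Salv CKO, against 11.82 and 11.77 in Control, a rise of 0.82 ± 0.08 (adjusted p = 0.0102). A dimmer Cdca8 probe, above background on 3 arrays, gave -1.16 ± 0.63 (adjusted p = 0.382). Rcc2, which helps to place the complex, rose by 0.55 ± 0.08 (adjusted p = 0.0244; 0.05 ± 0.19 on its other probe) and Racgap1, a GTPase regulator of the central spindle, by 0.57 ± 0.11 (adjusted p = 0.0443). Kif2c, a kinesin that takes microtubules apart, fell by 0.58 ± 0.12 (adjusted p = 0.0483), at 10.42 and 10.14 in Salv CKO and at 10.81 and 10.92 in Control. The other core subunits, Aurkb and Incenp, named for their role after their values were seen, gave 0.34 ± 0.33 and 0.08 ± 0.13 without a call.

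Of 24 listed genes of the G2 and M phases, when Birc5 is normally transcribed, 22 were measured. Of these, 1 was called higher and 0 lower on the main probe of each gene, against 4.92% and 5.7% of all genes. The called gene was the spindle checkpoint gene Mad2l1, at log2 12.11 and 12.27 in Salv CKO, against 11.77 and 11.78 in Control (0.41 ± 0.08, adjusted p = 0.0456). The list's median was 0.15, and 0.12 above the median of the measured genes with the values as deposited. A difference above 0 was found for 18 of the 22, and with the values as deposited 6 lay below the median of the measured genes. Cdc20, an activator of the anaphase-promoting complex chosen after its values were seen, gave 0.26 ± 0.06 on its main probe without a call (adjusted p = 0.0721). Its other probes gave 1.95 ± 0.07, which passed in the fit over all probes (adjusted p = 0.00889), and 1.15 ± 0.26, which did not (adjusted p = 0.0786). Other genes with a BIR domain were dim: of 3 measured, Naip2 and Birc7 were not above background on any array. Naip5, which senses bacterial flagellin in immune cells, gave 0.32 ± 0.47 (adjusted p = 0.724).

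The genes whose profile over the 4 arrays lay nearest to Birc2, by Euclidean distance between log2 values centred on each gene's mean, were Cul4b, a ubiquitin ligase scaffold (distance 0.0498), Smoc2, a secreted matrix protein (0.0652), and Pax8, a transcription factor (0.0656). They were higher in Salv CKO by 1.07, 1.08 and 1.15, a likeness to Birc2 that the choice by profile sets. Nearest to Birc5 were Zc3h18 (0.0265), Zfp668 (0.0294) and Ccdc58 (0.0326), at 0.40, 0.44 and 0.44. None of these was called (limma, adjusted p = 0.236, 0.0636 and 0.0538). The ranking covers 12402 genes and rests on 4 arrays.

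Markers of cell types other than heart muscle differed between the same pools. The shares called over all genes were 4.92% higher and 5.7% lower. The summed normalised intensity of 7 neural crest markers was 2265 to 2331 in Salv CKO and 984 to 999 in Control. Their median difference was 2.14, with 3 of 7 called higher and 2 below 0. Foxd3 was not above background on any array. Of 10 neural tube markers 3 were called higher and 1 lower, with sums of 14028 to 14282 in Salv CKO and 8504 to 9756 in Control. Of 9 endoderm and liver bud markers 4 were called higher, with a median of 1.30 and sums of 9203 to 9221 in Salv CKO and 3631 to 3801 in Control. Of 4 epicardial markers 1, Upk3b, was called higher. Wt1 and Tcf21 were not above background on any array, and Tbx18 was on 1. Sums were 1235 to 1394 in Salv CKO and 869 to 921 in Control, and Upk3b made up most of them. Upk3b stood at log2 10.24 and 10.41 in Salv CKO, against 9.76 and 9.74 in Control. Its other probe gave -0.13 ± 0.13 without a call (adjusted p = 0.631 over all probes). Lower sums were found for markers of heart muscle, endothelium and red cells. The 11 heart muscle markers summed to 366586 to 376122 in Salv CKO and 397590 to 442185 in Control, with a median difference of -0.60. Of them 4 were called lower: Nkx2-5 (-1.61 ± 0.21), Ttn (-1.41 ± 0.09), Tnni1 (-0.89 ± 0.07) and Myh6 (-0.67 ± 0.07). The 4 with a difference above 0, Actc1, Myl3, Myl4 and Myl7, gave 0.02 to 0.35. The 8 endothelial markers summed to 13149 to 13580 in Salv CKO and 23088 to 24010 in Control (median -0.74, 5 called lower). The 7 red cell markers summed to 112186 to 112592 in Salv CKO and 136380 to 137775 in Control (median -0.59, 3 called lower). All 11 heart muscle markers were above background on every array. Some lay at the top of the intensity scale: Actc1 and Myl4 stood at log2 15.95 in both Salv CKO pools, against 15.84 and 15.95 for Actc1 and 15.74 and 15.95 for Myl4 in the Control pools. The part of these cell types in the values of Birc2, Birc5 and the lists was not tested. In pooled whole hearts, more or fewer cells of a type cannot be told apart from more or less RNA per cell.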

How the data were processed

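Linear probe intensities, as deposited by the authors, were available for 2 Salv CKO and 2 Control pools, amplified with amino-allyl nucleotides and labelled with Cy5, per the labels' protocols. No label or header states the scanner, background method or software; 3.37 to 5.99% of values per array lay below 0, with a noise SD of 4.36 to 6.28 read from them. The platform's table gave 1 symbol for 21020 probes, and 8902 stay unnamed. Arrays were quantile normalised (limma 3.58.1, R 4.3.3), floored at 1 and put on the log2 scale. Per gene the probe of highest mean was kept. Genes, and separately all probes, were tested with limma (lmFit, eBayes with intensity trend, two-sided, Benjamini-Hochberg); the procedure was tested on simulated data. The number of arrays limits the precision, and p-values measure the spread between pools.

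The members, lists and tests were chosen with earlier results of these data known. Named are all members, up to 4 called genes per list and direction (otherwise the 2 of lowest p), and the 3 genes nearest in profile, clone names passed over. Alternatives covered scaling, floor, offset, a filter on dim genes, trend, probe averaging, left-out arrays and a replicate block; cyclic loess was added after seeing the data.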

Additional observations from a re-analysis of the deposited data

How the results depend on the processing

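With any 1 array left out, limma called 0 genes in either direction (3172 to 3438 at an unadjusted p under 0.05), and it called 0 without the intensity trend (3578 at an unadjusted p under 0.05), so Birc2 (1.01 to 1.17 with an array left out, 1.10 without the trend) and Birc5 (0.35 to 0.50, and 0.42) lost their calls there. All genes called higher and lower numbered 821 and 951 in the main setting, 229 and 3101 with the values as deposited, 253 and 228 with a floor of 16, 257 and 234 with a floor of 64, and 1239 and 1437 over genes above background on all arrays, where both calls held; with each array centred on its median 377 were higher. The share of calls that were higher was 46.3% in the main setting, 6.88% as deposited, 22.3% with median centring and 40.6% with the 75th percentile. Birc2 lost its call as deposited (0.77), with a floor of 16 (1.10) and with its probes averaged (0.17). Birc5 lost it with median centring (0.20), the 75th percentile (0.34), floors of 16 and 64 (0.42 each) and probes averaged (0.225), and turned as deposited (-0.071). Birc6 turned as deposited (-0.37) and with median centring (-0.10). Birc3 turned with median centring (0.038) and the 75th percentile (0.18), and ran from -0.42 to 0.42 with an array left out; with a floor of 64, Birc3 and Xiap lay at the floor and gave no value. Of the other probes, Birc5 mMC026041 was at -0.43 as deposited, -0.16 with median centring, -0.019 with the 75th percentile and -0.029 to 0.19 with an array left out, and Birc5 mMR028699 at -0.24 as deposited. With an array left out, Birc2 mMC021906 ran from -0.78 to 0.36 and Birc6 mMC011055 from -0.22 to 0.90. The cause of these changes was not tested. Equal replicate numbers share only a number (correlation of deviations 0.17 over 2 pairs); with the replicate block Birc2 (1.10) and Birc5 (0.42) kept their calls, and 1016 genes were higher and 1195 lower. Dim probes (Birc3, Xiap, Birc6 mMC011055) are limited by background.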
